A study of Mus musculus with 4 samples.

Results

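Chemokine receptors are the surface proteins by which T cells follow chemical gradients into and out of tissue. The 9 described here, Ccr2, Ccr4, Ccr6, Ccr8, Ccr9, Cxcr3, Cxcr4, Cxcr5 and Cxcr6, were taken by gene symbol from the 31053 genes of the deposited single-cell tables, and all 9 were listed in both tissues. The CD4 T cells came from the lungs of C57BL/6 mice that had received TC1 tumor cells, a transplantable mouse line of lung epithelial origin, through the tail vein 3 weeks earlier, and from the lungs of normal C57BL/6 mice of matched age. Lungs of both groups were perfused, digested with collagenase and DNase and passed over Percoll, and the T cells were enriched for CD4 and sorted as live CD4+ cells before single-cell RNA and T cell receptor libraries were made. There was 1 RNA library per tissue, and the number of mice behind each is not given in the sources used here. No difference between tissues therefore has a replicate check, no test across animals was possible, and every interval below covers counting error in these libraries only.

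Each receptor couples to inhibitory G proteins, and the ligands are laid down by epithelial, stromal and myeloid cells. Resting T cells carry Ccr7, which leads them into lymph nodes, and after activation they tend to lose it and to take up receptors for peripheral tissue. The set a cell takes up differs between helper lineages: Cxcr3 is typical of type 1 helper cells, Ccr4 and Ccr8 of type 2 cells, Ccr6 of type 17 cells and Cxcr5 of follicular helper cells. Regulatory T cells (Tregs), which depend on the transcription factor Foxp3, can carry any of these, and Ccr8 and Ccr4 are known on Tregs of skin, lung and tumors.

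After filtering, 7135 tumor-lung and 7082 normal-lung cells remained, with 31921001 and 28084248 unique molecular identifiers (UMIs, counted RNA molecules) and a median of 4173 and 3906 per cell. Cells were split by whether they had at least 1 UMI of Foxp3 and of Ccr7. The Foxp3+ Ccr7- set held 746 tumor-lung cells (10.5%) but only 31 normal-lung cells (0.438%), and the Foxp3+ Ccr7+ set held 401 and 175 cells. The Foxp3- Ccr7- set held 1139 and 682 cells, and the Foxp3- Ccr7+ set, which contains most resting cells, held 4849 (68.0%) and 6194 (87.5%). Cd3e was seen in 93.8% to 100% of the cells of each set and Cd4 in 52.6% to 67.7%, and the B cell gene Ms4a1, the macrophage gene Adgre1 and the neutrophil genes S100a8 and S100a9 were at 0 UMIs in all 8. Other genes of those lists were caught. Summed B cell markers lay between 121 and 418 CPM (counts per 1000000 UMIs of the set), with any of them in 31.1% to 67.7% of cells. Myeloid markers lay between 66.0 and 201 CPM, in 22.7% to 58.3% of cells. CD8 T cell markers summed to 0 to 28.8 CPM, and endothelium and stroma markers to 44.6 to 124 CPM. Natural killer and innate-like T cell markers summed to 29.4 and 45.5 CPM in tumor and normal Foxp3- Ccr7- cells and to at most 8.08 CPM elsewhere. The plasmacytoid dendritic cell list, which also holds Ccr9, summed to 617, 443, 450 and 170 CPM in the tumor sets and 145, 92.8, 123 and 89.1 CPM in the normal sets (order Foxp3+ Ccr7-, Foxp3+ Ccr7+, Foxp3- Ccr7-, Foxp3- Ccr7+). Of its 6 genes the defining marker Siglech was at 0 in every set, and in tumor Foxp3+ Ccr7- cells 534 of the 617 CPM came from Bst2, an interferon-induced gene. The lung epithelium and tumor line list summed to 6.49 to 49.5 CPM in the tumor sets and 2.58 to 8.08 CPM in the normal sets. It was highest in tumor Foxp3+ Ccr7- cells, where 18.6% of cells held any of its genes. Krt8 and Sftpa1 were at 0 in all 4 tumor sets. The ratios between tissues were also computed without cells holding Cd79a, Ms4a1, Lyz2, Csf1r, Cd8a, Cd8b1 or Epcam. In Foxp3+ Ccr7- cells, for example, this moved Cxcr3 from 1.46 to 3.83 and Cxcr6 from 1.64 to 1.46. In Foxp3- Ccr7+ cells it moved Ccr2 from 0.737 to 0.590. Beyond that, the part of cells of other types in the receptor values was not tested. The summed Treg markers, which include Foxp3, reached 1180 CPM in Foxp3- Ccr7- cells of the tumor lung and 455 CPM in those of the normal lung, against 7482 and 4540 CPM in Foxp3+ Ccr7- cells. A cell counted as Foxp3-negative may still be a Treg whose Foxp3 RNA was not caught, and the ratios between tissues were therefore also computed without Foxp3-negative cells that held Il2ra, Ikzf2, Lrrc32 or Gpr83.

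The genes of 6 of the 9 receptors lie on chromosome 9 of the mouse genome (GRCm38.p6, RefSeq gene table), where Ccr9, Cxcr6 and Ccr2 follow each other within 341.9 kb. Ccr6 is on chromosome 17, Cxcr3 on X and Cxcr4 on 1. The spans of Ccr6, Ccr9, Cxcr5 and Cxcr6 overlap those of Gm33799, Gm17021, Bcl9l and Fyco1, and the strand setting of the counting is not given in the sources used here, so a read in such an overlap cannot be assigned from the counts alone. The 250 bases before the start site are shown for Ccr8 (chr9:120091883-120092132, plus strand) and Cxcr4 (chr1:128592300-128592549, minus strand), the receptors whose ratio between tissues passed 1.5-fold in every set of cells. They are also shown for the Ccr6 window (chr17:8235793-8236042, plus strand) that holds the matches marked in capitals. The other Ccr6 window, chr17:8242276-8242525, held no match to the motifs below and is not shown. Each sequence shown reads 5′ to 3′ on the strand of its gene and comes from RefSeq on GRCm38.p6.
Ccr8: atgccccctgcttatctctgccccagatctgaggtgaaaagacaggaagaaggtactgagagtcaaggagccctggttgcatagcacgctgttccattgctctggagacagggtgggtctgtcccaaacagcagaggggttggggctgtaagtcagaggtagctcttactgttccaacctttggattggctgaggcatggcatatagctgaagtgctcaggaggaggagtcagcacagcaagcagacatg
Cxcr4: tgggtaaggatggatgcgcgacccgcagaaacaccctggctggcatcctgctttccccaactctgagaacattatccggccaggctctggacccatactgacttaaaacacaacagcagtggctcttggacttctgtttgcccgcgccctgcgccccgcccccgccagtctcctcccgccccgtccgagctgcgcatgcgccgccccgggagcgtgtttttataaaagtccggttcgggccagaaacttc
Ccr6: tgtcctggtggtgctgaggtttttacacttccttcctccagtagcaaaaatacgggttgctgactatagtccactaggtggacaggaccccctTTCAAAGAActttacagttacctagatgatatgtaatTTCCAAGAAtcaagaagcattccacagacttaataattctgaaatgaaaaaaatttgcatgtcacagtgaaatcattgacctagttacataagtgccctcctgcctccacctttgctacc

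The windows were searched on both strands for an AP-1 motif (TGANTCA), a T-box half-site named here by its letters GGTGTGA, and a STAT motif (TTCNNNGAA). None of these 3 shares letters with another at a match found. The capitals in the Ccr6 window shown mark STAT matches, which begin at positions -157 and -120 from the start site. Of the 8 receptors with a window in the table, which has none for Cxcr5, 1 held a STAT match and 1, Ccr4, an AP-1 match at -143. None held GGTGTGA. Of all 32851 windows in the table, 6.75% held the AP-1 motif, 3.33% GGTGTGA and 7.02% the STAT motif. A match is a run of letters, not a measured binding site.

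Most of the 9 receptors stood at a higher level in cells without Ccr7. Within Foxp3-negative cells, 8 of the 9 were at least 1.5-fold higher in Ccr7- than in Ccr7+ cells of the tumor lung and 8 of the 9 in the normal lung, and none was 1.5-fold lower in either. Of all genes with at least 20 UMIs, 14.9% (10863 genes, tumor) and 18.0% (10793 genes, normal) were that much higher, and 5.20% and 8.25% that much lower. The median log2 ratio of the receptors was 2.76 in the tumor lung and 3.01 in the normal lung, against 0.12 and 0.15 over all genes counted. Ccr2, the receptor for Ccl2 on monocytes and effector T cells, stood at 47.4 CPM in Ccr7- and 2.12 CPM in Ccr7+ cells of the tumor lung, a ratio of 22.4. In the normal lung it stood at 89.8 and 2.87 CPM. Cxcr6, the receptor for the membrane-bound ligand Cxcl16 and a marker of tissue-resident T cells, had ratios of 20.8 and 36.8. Cxcr4, the receptor for the stromal chemokine Cxcl12 that resting T cells also carry, had ratios of 1.62 and 1.33. Cxcr5 ranged from 1.34 to 2.23 CPM over the Foxp3-negative sets, with at most 35 UMIs in any of them, too few to follow further. In the normal lung it was among the 8 that passed, at 1.52 (0.464 to 3.92) on 5 and 33 UMIs, and Cxcr4 was not. In the tumor lung Cxcr4 was among the 8 and Cxcr5 (1.35) was not. With scaling by the median of ratios, 7 passed in the tumor lung and 6 in the normal lung. Among Foxp3+ cells of the tumor lung 3 of 8 counted receptors were at least 1.5-fold higher without Ccr7 and 1 lower. Of 9594 genes, 9.39% were that much higher and 6.73% lower. Cxcr6 was 2.51-fold, Ccr2 2.42-fold and Ccr8 1.55-fold higher, and Cxcr5, on 10 and 16 UMIs, was at 0.416 of its level with Ccr7. Ccr6 was also lower without Ccr7, at 0.749 (0.599 to 0.938), within 1.5-fold. Among the few Foxp3+ cells of the normal lung all 5 counted receptors were at least 1.5-fold higher without Ccr7. Of 4972 genes, 26.0% were that much higher and 19.9% lower. Ccr2 was 9.28-fold, Cxcr3 9.16-fold (19 and 13 UMIs), Ccr4 4.48-fold, Ccr8 4.18-fold and Ccr6 2.44-fold higher. The Ccr6 interval, on 7 and 18 UMIs, was 0.861 to 6.12 and includes 1. Without and with Ccr7, 5 cells held 59.5% and 88.0% of the Ccr2 UMIs, and 76.7% and 61.9% of those of Ccr4.

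**Figure D1:**
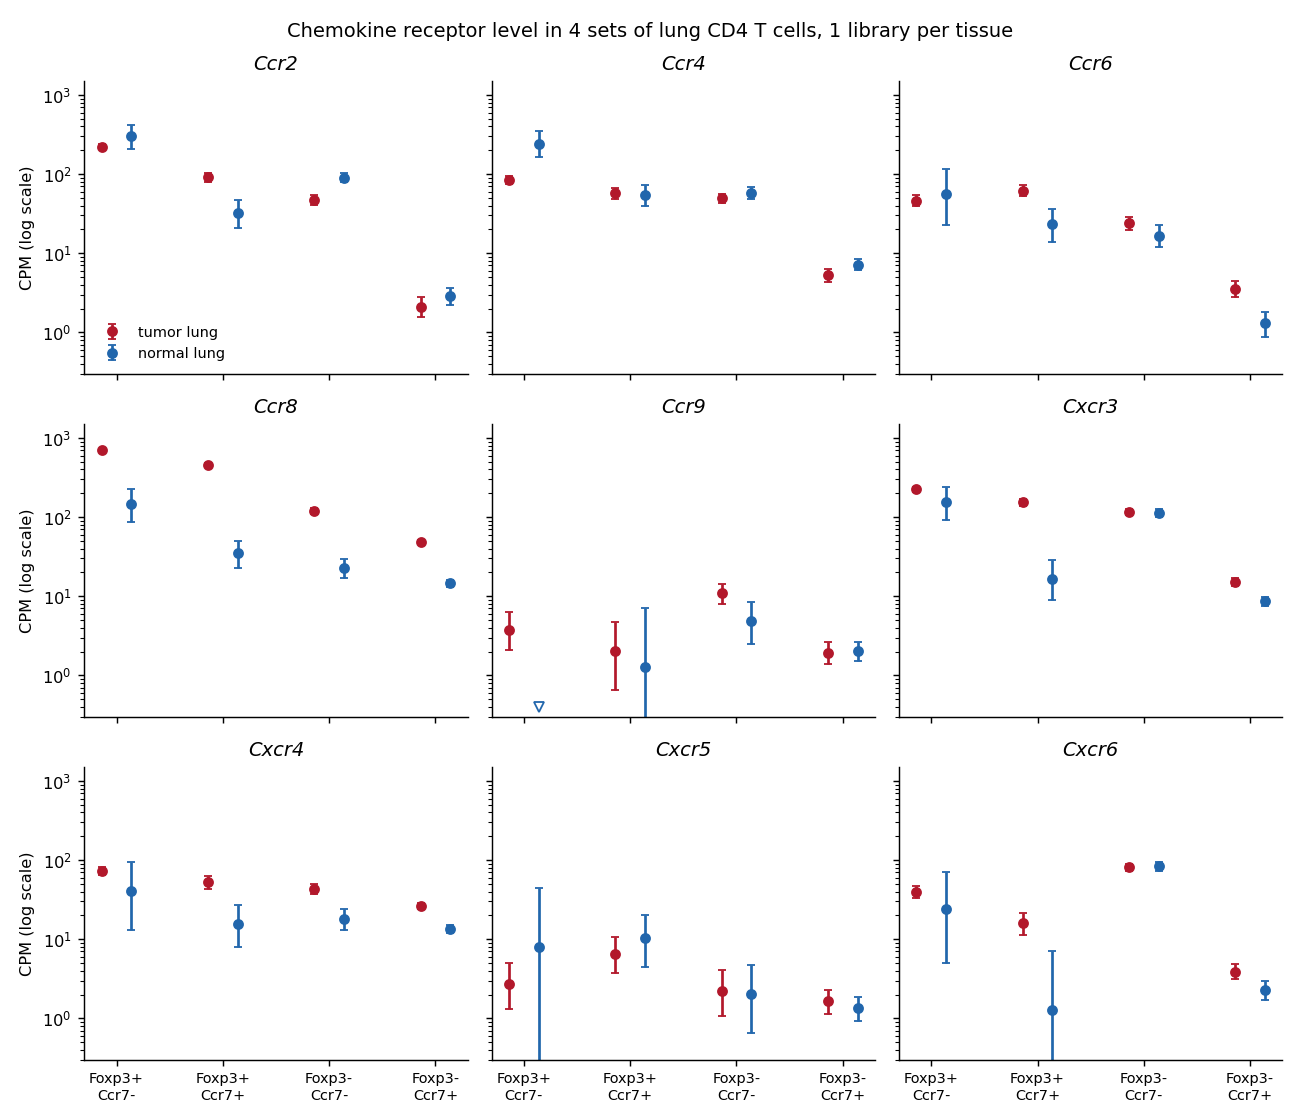
Level of each receptor (CPM, log axis) in the 4 sets of cells of the tumor and the normal lung, with 95% Poisson intervals for counting error; each point is 1 library, and an open triangle marks 0 UMIs. Ccr8 of the tumor lung lies above that of the normal lung in every set, and the intervals of normal Foxp3+ Ccr7- cells are wide because only 31 cells were in that set.

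Ccr8, the receptor for Ccl1 and Ccl8, was higher in the tumor lung in every set. In Foxp3+ Ccr7- cells it stood at 706 CPM (2609 UMIs) in the tumor lung and 145 CPM (18 UMIs) in the normal lung, a ratio of 4.85 (95% interval 3.07 to 8.20). With Ccr7, Foxp3+ cells had 455 and 34.8 CPM, a ratio of 13.1 (8.95 to 20.0). Foxp3- Ccr7- cells had 118 and 22.7 CPM, a ratio of 5.21 (3.95 to 6.99), and without the cells holding other Treg genes it was 3.06. Foxp3- Ccr7+ cells had 48.9 and 14.6 CPM, 3.35-fold apart (2.97 to 3.78). More cells held a UMI of it, and each of them held more: 72.0% of tumor Foxp3+ Ccr7- cells had one, with a mean of 4.86 UMIs per such cell, against 29.0% and 2.0 UMIs in the normal lung. When every cell was thinned to 2417 UMIs the shares were 61.4% and 24.1%. In Foxp3+ Ccr7+ cells the share was 55.4% in the tumor lung and 9.71% in the normal lung. In Foxp3- Ccr7+ cells, the set nearest to resting T cells, 9.63% and 3.78% held a UMI, at median depths of 4176 and 3939 UMIs. The ratio of Ccr8 to Ccr2 UMIs was 3.19 in tumor Foxp3+ Ccr7- cells and 23.1 (17.1 to 31.9) in tumor Foxp3- Ccr7+ cells, and the part of free RNA in these shares was not tested. Tumor Foxp3+ Ccr7- cells held 49.2% of the Ccr8 UMIs of their library, whereas in the normal lung 78.1% lay in the far larger Foxp3- Ccr7+ set.

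Ccr4, which binds Ccl17 and Ccl22 and is the other receptor often paired with Ccr8 on Tregs, was lower with tumor in Foxp3+ Ccr7- cells. It stood at 83.6 CPM (309 UMIs) in the tumor lung and 242 CPM (30 UMIs) in the normal lung, a ratio of 0.345 (0.237 to 0.520), so it was 2.90-fold lower with tumor. The shares of cells were nearer to each other, 25.3% and 32.3%, and 76.7% of the normal UMIs lay in 5 cells. In the remaining sets its ratio was 1.06 (Foxp3+ Ccr7+), 0.851 (Foxp3- Ccr7-) and 0.731 (Foxp3- Ccr7+), all within 1.5-fold. In Foxp3- Ccr7+ cells it passed 1.5-fold lower without cells holding other Treg genes (0.574) and with Ccr7 at 2 UMIs (0.653), and without such Treg-gene cells it was 0.809 in Foxp3- Ccr7- cells. In Foxp3+ Ccr7+ cells it moved to 0.669 when a Foxp3-positive cell needed 2 UMIs.

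Ccr2 was lower with tumor in cells without Foxp3 and Ccr7. There it stood at 47.4 CPM in the tumor lung and 89.8 CPM in the normal lung, 1.89-fold lower (ratio 0.528, 0.436 to 0.640), and 9.39% and 15.0% of cells held a UMI. With 1 cell per clone the ratio was 0.662, with thinned cells 0.758, which no longer passes 1.5-fold, and without cells holding other Treg genes 0.399. Foxp3+ Ccr7- cells had 221 and 299 CPM, with a ratio of 0.740, whose interval, 0.533 to 1.06, includes 1. Among Foxp3+ Ccr7+ cells Ccr2 was instead 2.84-fold higher in the tumor lung (91.4 and 32.2 CPM), but 88.0% of the 25 normal UMIs came from 5 cells, and the ratio was 1.69 in thinned cells. The share of cells with a UMI there was 22.7% in the tumor lung and 4.57% in the normal lung. In Foxp3- Ccr7+ cells Ccr2 stood at 2.12 and 2.87 CPM, a ratio of 0.737 (0.496 to 1.09), which ran from 0.525 with Ccr7 at 2 UMIs to 1.49 in thinned cells.

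Cxcr3, the receptor for the interferon-induced chemokines Cxcl9 and Cxcl10, was at least 1.5-fold higher with tumor in both sets that still held Ccr7. In Foxp3+ Ccr7+ cells it stood at 154 CPM (378 UMIs) and 16.8 CPM (13 UMIs), a ratio of 9.17 (5.30 to 17.4), and 36.9% and 2.29% of cells held a UMI. In thinned cells that ratio was 19.0. In Foxp3- Ccr7+ cells the levels were 15.2 and 8.62 CPM, 1.77-fold apart, or 1.46-fold by the mean of per-cell CPM. Cells without Foxp3 and Ccr7 had 115 and 113 CPM, a ratio of 1.01 (0.873 to 1.17), with 19.9% and 18.6% of cells positive. Without cells holding other Treg genes it was 0.921. Foxp3+ Ccr7- cells had 225 CPM (831 UMIs) and 154 CPM (19 UMIs), and the ratio of 1.46 had an interval of 0.932 to 2.45. That value rested on 5 normal-lung cells, of which 1 held 12 of the 19 UMIs, and was 3.83 without cells holding markers of other lineages. The shares of Foxp3+ Ccr7- cells with a UMI lay further apart, at 45.8% and 16.1% (5.45% to 33.7%), or 33.2% and 10.3% in thinned cells.

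Ccr6, the receptor for the epithelial chemokine Ccl20, was 2.66-fold higher with tumor in Foxp3+ Ccr7+ cells (61.7 and 23.2 CPM) and 2.72-fold higher in Foxp3- Ccr7+ cells (3.53 and 1.29 CPM), where 62.5% of the 32 normal UMIs lay in 5 cells. The latter ratio was 1.81 without cells holding other Treg genes. Its ratios in the sets without Ccr7 were 0.818 and 1.43, with intervals that include 1. They ran from 0.619 to 1.13 and from 1.06 to 1.54 over the alternatives, and so passed 1.5-fold in some. Cxcr4 passed 1.5-fold in all 4 sets, at ratios of 1.80 (0.762 to 5.59, on 5 normal UMIs), 3.39, 2.39 and 1.96, in the order Foxp3+ Ccr7-, Foxp3+ Ccr7+, Foxp3- Ccr7- and Foxp3- Ccr7+. In the largest set it stood at 26.3 and 13.4 CPM, and 10.3% and 4.99% of cells held a UMI. Its Foxp3- Ccr7- ratio was 2.38 without cells holding other Treg genes. Cxcr6 stood at 81.0 CPM in tumor and 83.3 CPM in normal Foxp3- Ccr7- cells, the set that holds most of it, with a ratio of 0.973 (0.818 to 1.16) and 13.5% of cells positive in both tissues, and without cells holding other Treg genes the ratio was 0.894. It was 1.72-fold higher with tumor in Foxp3- Ccr7+ cells, but 4 alternatives brought that under 1.5-fold, the lowest being 1.27 without cells holding other Treg genes. In Foxp3+ cells the normal lung held only 3 and 1 UMIs of it, so its ratios of 1.64 (0.551 to 8.05) without Ccr7 and 12.3 (2.08 to 498) with it rest on almost no normal molecules. The former was 1.46 without cells holding markers of other lineages. Ccr9, a receptor known for gut homing, stood at 10.9 and 4.87 CPM in Foxp3- Ccr7- cells, a ratio of 2.24 on 49 and 12 UMIs, of which 49.0% of the tumor UMIs lay in 5 cells. Its ratio was 1.34 by the mean of per-cell CPM and 5.38 without cells holding other Treg genes. None of the 31 normal Foxp3+ Ccr7- cells held a Ccr9 UMI, and a floor of 3 cells allows a share of cells with a UMI, not of cells expressing it, of up to 9.68%.

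Counted by set, 3 of the 7 receptors with at least 20 UMIs were at least 1.5-fold higher with tumor in Foxp3+ Ccr7- cells and 1 lower, where 22.2% and 26.8% of 8805 genes were that much higher and lower. In Foxp3+ Ccr7+ cells 6 of 8 were higher and 1 lower, against 25.6% and 8.47% of 8433 genes. The lower one was Cxcr5, at 6.50 and 10.3 CPM on 16 and 8 UMIs (0.631, 0.255 to 1.70), and 4 alternatives brought it within 1.5-fold, up to 0.868. In Foxp3- Ccr7- cells 3 of 8 were higher and 1 lower, against 10.2% and 7.22% of 9540 genes, and in Foxp3- Ccr7+ cells 5 of 9 were higher and none lower, against 7.54% and 3.50% of 11377 genes. The median log2 ratio of the counted receptors was 0.55, 1.63, 0.27 and 0.78 in that order of sets, beside -0.07, 0.17, -0.02 and 0.03 over all genes counted. The normal Foxp3+ sets held 31 and 175 cells, and the shares of all genes past the fold were higher in the Foxp3+ than in the Foxp3- sets.

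**Figure D2:**
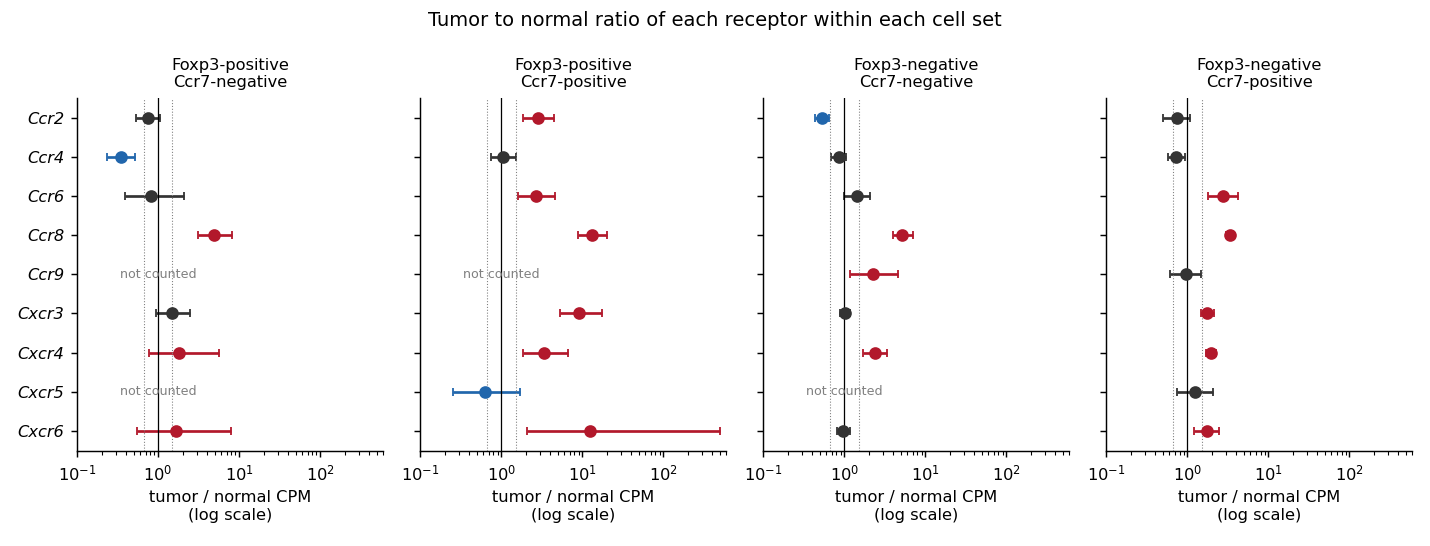
Ratio of tumor-lung to normal-lung level for each receptor in each set of cells (log axis; bars are 95% intervals for counting error, 1 library per tissue; dotted lines mark 1.5-fold either way, red is past it upward and blue downward, and receptors under 20 UMIs are not counted). Ccr8 and Cxcr4 lie past the upper line in all 4 sets, while Ccr4 lies below the lower line in Foxp3+ Ccr7- cells and near 1 in Foxp3+ Ccr7+ cells.

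Foxp3-positive cells as a whole held more of most receptors than Foxp3-negative cells in both tissues. In the tumor lung 8 of 9 receptors were at least 1.5-fold higher in Foxp3-positive cells and none lower, against 29.5% and 13.0% of 11418 genes. In the normal lung 6 of 9 were higher and 2 lower, against 20.2% and 10.5% of 10853 genes. The lower ones were Cxcr6 and Ccr9, with 4 and 1 UMIs in Foxp3-positive cells. The median log2 ratio of the receptors was 2.49 in the tumor lung and 1.71 in the normal lung, against 0.22 and 0.11 over all genes. Ccr2 was 16.9-fold (14.7 to 19.5), Ccr8 9.93-fold, Ccr6 7.42-fold, Cxcr3 6.03-fold and Ccr4 5.64-fold higher in Foxp3-positive cells of the tumor lung. In the normal lung Ccr6 was 10.3-fold (6.29 to 16.5), Ccr4 6.78-fold, Ccr2 6.41-fold and Ccr8 3.26-fold higher. Among cells without Ccr7 the ratios in the tumor lung shrank to 5.96 for Ccr8, 4.67 for Ccr2, 1.96 for Cxcr3, 1.94 for Ccr6 and 1.69 for Ccr4. Cxcr6 turned, from 1.74 over all cells to 0.491 (0.402 to 0.596) among cells without Ccr7, that is 2.04-fold lower in Foxp3-positive cells. In the normal lung Ccr8 instead rose, from 3.26 over all cells to 6.39 among cells without Ccr7, on 18 UMIs in Foxp3-positive cells. Cxcr4 also rose there, from 1.37 to 2.26 on 5 UMIs, and Ccr2, Ccr4, Ccr6 and Cxcr3 shrank to 3.33, 4.17, 3.40 and 1.35. Without Ccr7, 6 of 9 receptors were at least 1.5-fold higher and 2 lower in the tumor lung, against 22.6% and 11.7% of 9939 genes. In the normal lung 5 of 7 were higher and 1 lower, against 28.2% and 19.5% of 7799 genes. Ccr7 was held by 35.0% of Foxp3-positive cells of the tumor lung and 85.0% of those of the normal lung. Over all Foxp3-positive cells, without the split by Ccr7, Cxcr3 was 5.52-fold and Ccr2 2.46-fold higher with tumor, and Ccr4 was at 0.913. The Cxcr3 and Ccr2 ratios given above were 1.46 and 0.740 in the Ccr7-negative cells and 9.17 and 2.84 in the Ccr7-positive ones. The part of the differing share of Ccr7-negative cells in the contrast between tissues was not tested.

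Single cells of the tumor lung often held several receptors. At least 1 of the 9 was seen in 94.4% of tumor Foxp3+ Ccr7- cells and 74.2% of normal ones, and in thinned cells in 89.6% and 65.5%. In Foxp3+ Ccr7+ cells the shares were 76.6% and 24.0%, in Foxp3- Ccr7- cells 45.3% and 41.2%, and in Foxp3- Ccr7+ cells 22.6% and 11.7%. Tumor Foxp3+ Ccr7- cells held a mean of 2.34 different receptors, or 1.71 after thinning, 16.6% held 4 or more, and the most in a cell was 6. Their most frequent contents were Ccr8 alone (86 cells, 11.5%), Ccr8 with Cxcr3 (66 cells, 8.85%), none (42 cells, 5.63%) and Ccr2, Ccr8 and Cxcr3 together (40 cells, 5.36%). In Foxp3- Ccr7- cells none was the commonest state in both tissues, at 54.7% and 58.8%, and Ccr2 with Cxcr6 was the commonest pair in the normal lung (19 cells, 2.79%). Cells of the same clone were not left out of that count. A cell with no UMI of a receptor may still express it, since most were caught with few UMIs per cell.

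**Figure D3:**
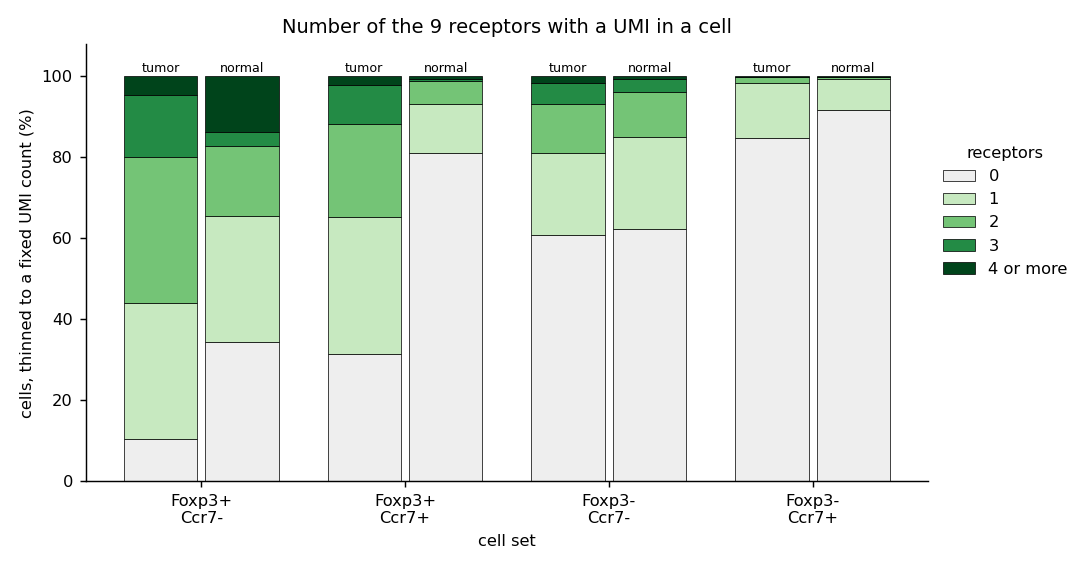
Share of cells (percent) of each set and tissue that held a UMI of 0, 1, 2, 3 or at least 4 of the 9 receptors, after thinning every cell to 2417 UMIs. In Foxp3+ Ccr7- cells of the tumor lung 10.4% held none, and in Foxp3- Ccr7+ cells of the normal lung 91.8% held none.

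Whether receptors were seen in the same cells was measured as the number of cells with a UMI of both, over the number expected if each were placed independently within 10 bins of cell depth. Of the 36 possible pairs, those with at least 5 expected cells are described. In tumor Foxp3+ Ccr7- cells, 23 pairs had that many, and their median ratio was 0.998: the receptors there were combined about as often as independent placing gives. The single pair past 1.5-fold was Ccr6 with Cxcr3, seen apart. Both were found in 32 cells where 50.3 were expected, a ratio of 0.636 (0.435 to 0.898), which just missed 1.5-fold with receptor doublets kept (37 against 55.5, ratio 0.667). Cxcr3 was held by 29.6% of cells with Ccr6 and 48.6% of cells without it. Cxcr4 with Cxcr6 (0.732), Ccr2 with Ccr6 (0.857) and Ccr4 with Ccr8 (0.879) came next. At the other end were Ccr8 with Cxcr6 (1.23), Ccr6 with Cxcr6 (1.22), Ccr2 with Ccr4 (1.22) and Ccr2 with Cxcr3 (1.11). In tumor Foxp3+ Ccr7+ cells 1 of 23 pairs passed 1.5-fold, Ccr2 with Ccr4, which shared 38 cells where 24.4 were expected (1.56, 1.10 to 2.14).

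The receptors of Foxp3- Ccr7- cells were found together more often: 13 of 23 pairs passed 1.5-fold in the tumor lung, with a median of 1.56, and 5 of 14 in the normal lung, with a median of 1.39, and none was seen apart by that fold. Ccr2 and Cxcr6 shared 53 tumor-lung cells where 23.8 were expected (2.23, 1.67 to 2.91) and 47 normal-lung cells where 20.9 were expected (2.25, 1.66 to 3.00). In the normal lung 1 clone of 29 cells, 27 of them in this set, had 23 cells with Ccr2 and 15 with Cxcr6. The interval treats its cells as independent, and the part of that clone in the 47 cells was not tested. Ccr9 and Cxcr6 shared 14 tumor-lung cells where 5.27 were expected (2.66, 1.45 to 4.46), and Cxcr6 was in 60.9% of the tumor-lung cells with Ccr9 against 12.5% of those without. Ccr4 and Ccr6 (2.07) and Ccr2 and Ccr4 (1.88) followed in the tumor lung, and Ccr4 with Cxcr6 (2.21), Cxcr3 with Cxcr6 (2.03) and Ccr4 with Cxcr3 (1.78) in the normal lung. The lowest tumor-lung pairs were Ccr4 with Cxcr4 (0.914), Ccr4 with Ccr8 (1.06), Ccr6 with Cxcr3 (1.15) and Ccr6 with Ccr8 (1.15). In Foxp3- Ccr7+ cells 7 of 10 pairs passed in the tumor lung, led by Ccr4 with Cxcr3 (24 cells where 5.77 were expected, 4.16), and 2 of 4 in the normal lung. Ccr8 with Cxcr4 was not among them (0.976 and 0.830). These sets mix cells with many receptors and cells with none, and the part of that mix in the ratios was not tested. No share over pairs of other genes was computed, so the counts of pairs cannot be read as particular to the receptors.

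**Figure D4:**
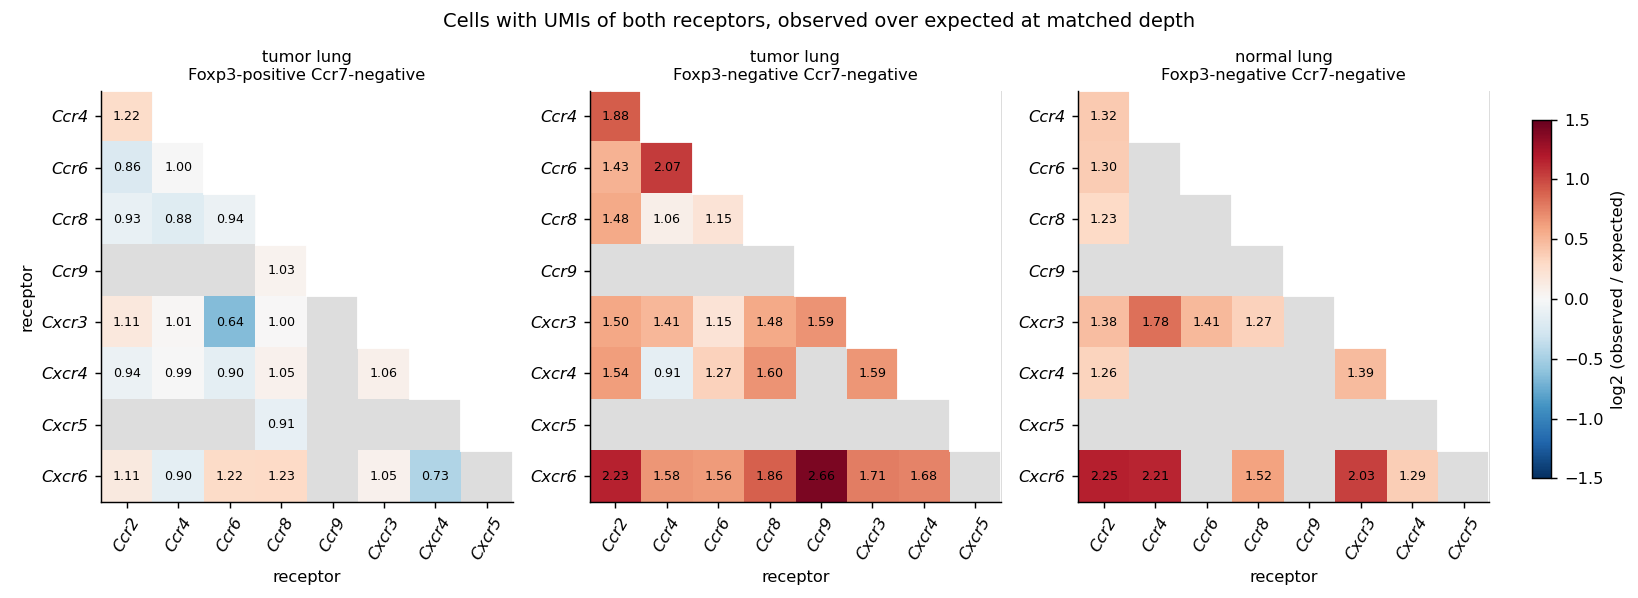
Cells with a UMI of both receptors of a pair, as a ratio to the number expected from independent placing within bins of depth (number in each field; colour is its log2), for the 3 Ccr7-negative sets with several described pairs; grey fields had under 5 expected cells. Most described pairs of the Foxp3- sets have ratios above 1, while in tumor Foxp3+ Ccr7- cells the field of Ccr6 with Cxcr3, at 0.636, is the only one past 1.5-fold.

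The transcription factors of the helper lineages were set beside the receptors in the same way. Tbx21, the type 1 factor, shared 44 tumor-lung Foxp3- Ccr7- cells with Cxcr3 where 20.3 were expected (2.17, 1.57 to 2.91), and 38 normal-lung cells where 22.6 were expected (1.68, 1.19 to 2.31). In tumor Foxp3+ Ccr7- cells the pair had a ratio of 1.31 (0.942 to 1.77). Tbx21 and Ccr6 shared 1 tumor-lung Foxp3- Ccr7- cell where 6.50 were expected (0.154, 0.00389 to 0.857), and Tbx21 and Ccr4 shared 7 tumor Foxp3+ Ccr7- cells where 18.1 were expected (0.387, 0.155 to 0.796). With Cxcr6, Tbx21 was seen more often than expected in tumor Foxp3- Ccr7- cells (28 against 13.4, ratio 2.09, 1.39 to 3.02) and less often in tumor Foxp3+ Ccr7- cells (2 against 6.50, ratio 0.308), a difference that was not tested. Gata3, the type 2 factor, and Ccr4 had ratios of 1.38 and 1.44 in Foxp3- Ccr7- cells of tumor and normal lung, and 1.01 in tumor Foxp3+ Ccr7- cells. Bcl6, the follicular factor, shared at most 2 cells with Cxcr5 in any set. Over all members and factors, 20 of 62 described pairs passed 1.5-fold upward and 2 downward in tumor Foxp3- Ccr7- cells, against 1 and 4 of 63 in tumor Foxp3+ Ccr7- cells. A share over pairs of other genes was not computed here either.

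Receptor content was set against clone size, a clone being the cells of a library with the same alpha and beta chain sequences, and expanded where it had at least 2 cells. Clone size counted all kept cells of the library, so the other cells of an expanded clone can lie in another set. Of the 80 expanded tumor Foxp3- Ccr7- cells, 56 in 23 clones shared their clone with another cell of that set. In tumor Foxp3+ Ccr7- cells, 219 of 590 cells with a paired receptor (37.1%) were in an expanded clone. Cells with Ccr8 were so in 42.8% (183 of 428, 38.0% to 47.6%) and cells without it in 22.2% (16.1% to 29.4%). Ccr6 went the other way, with 21.3% (19 of 89, 13.4% to 31.3%) of cells with it and 39.9% of cells without it expanded. Cxcr3 (40.9% and 33.4%), Ccr2 (36.3% and 37.7%) and Ccr4 (31.5% and 39.2%) divided the cells less. In tumor Foxp3- Ccr7- cells, 80 of 870 cells (9.20%) were expanded, and every receptor given here marked more of them: 29.8% of cells with Cxcr3 (57 of 191) and 3.39% of those without, 27.8% and 7.05% for Ccr2, 25.0% and 6.96% for Ccr4, 22.6% and 6.49% for Ccr8, and 22.3% and 6.89% for Cxcr6. These values were not tested, since the cells of a clone share their origin.

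In the normal lung, 90 of 500 Foxp3- Ccr7- cells (18.0%) were expanded, and 47.5% (38 of 80) of those with Ccr2 were, against 12.4% of those without. For Cxcr6 the shares were 37.3% and 14.6%, for Cxcr3 25.5% and 16.0%, and for Ccr8 17.2% and 18.1%. Of the 90 expanded cells, 27 belonged to 1 clone of 29. In it 23 cells held Ccr2 (70 UMIs), 15 held Cxcr6 and 5 held Cxcr3, while Ccr4, Ccr6, Ccr8, Ccr9 and Cxcr5 had no UMI. The largest tumor-lung clone had 8 cells, all Foxp3-positive, of which 8 held Cxcr3 and 6 held Ccr8. The second largest had 7 cells, 3 of them Foxp3+ Ccr7- and 4 Foxp3- Ccr7-, and 6 held Ccr8 and 3 held Cxcr3. The third largest had 6 Foxp3- Ccr7- cells, of which 6 held Cxcr3 and 5 held Cxcr6. Clone mates, the other cells of the same clone, were compared receptor by receptor. In 102 expanded clones of tumor Foxp3-positive cells, 82.1% of the mates of a cell with Ccr8 also held it, against 75.5% of the mates of a cell without it, and for Cxcr3 the shares were 62.7% and 52.2%. Ccr2 (32.6% and 35.4%) and Cxcr6 (4.35% and 8.70%) did not show this order. In 23 expanded clones of tumor Foxp3- Ccr7- cells the shares were 86.8% and 57.9% for Cxcr3, 48.5% and 24.6% for Ccr4, 24.0% and 24.7% for Ccr2, and 0% and 7.37% for Ccr6.

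**Figure D5:**
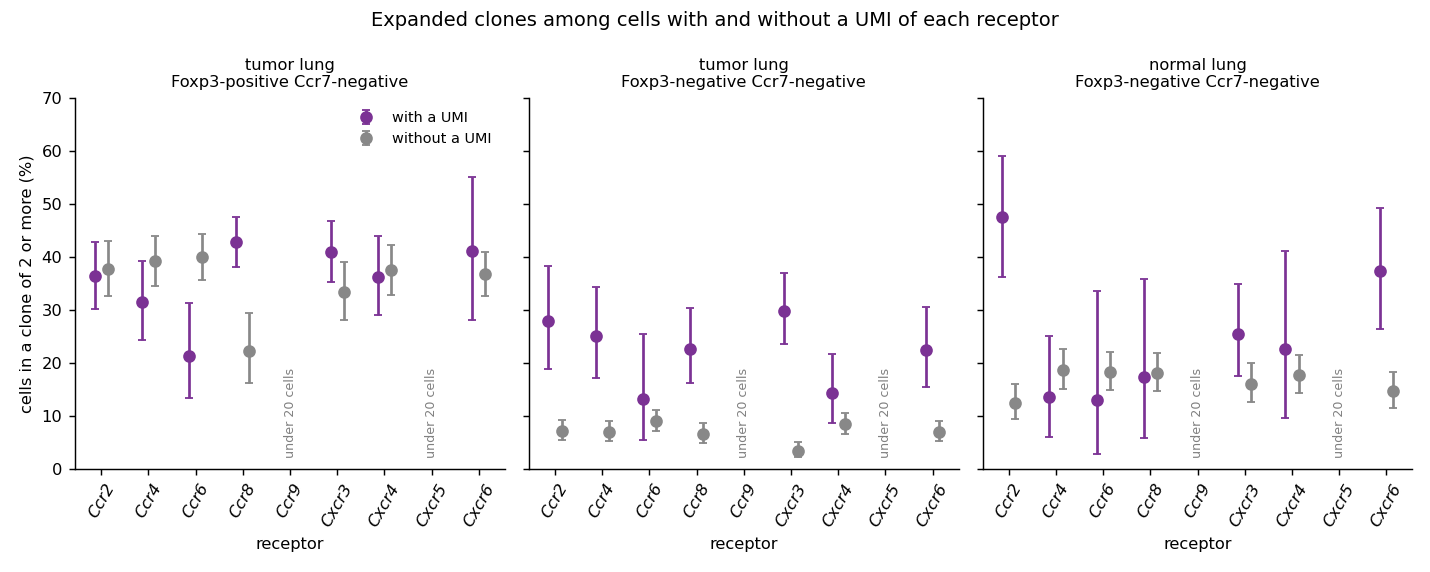
Percent of cells in an expanded clone among cells with and without a UMI of each receptor (purple and grey) in 3 Ccr7-negative sets, with exact 95% binomial intervals that treat cells as independent; receptors held by under 20 cells are not drawn. In tumor Foxp3+ Ccr7- cells the share is higher with Ccr8 (42.8% against 22.2%) and lower with Ccr6 (21.3% against 39.9%).

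Other genes of chemokine sensing were taken from fixed lists, of which those past 1.5-fold in the same direction in both Ccr7-negative sets are named. Of the 12 other chemokine receptors in the table, 5 could be counted in Foxp3+ Ccr7- cells, 3 higher and 2 lower with tumor, and 4 in Foxp3- Ccr7- cells, 1 higher and 3 lower. The shares over all genes given above, 22.2% higher and 26.8% lower in the former set and 10.2% and 7.22% in the latter, apply to every list here. Ccrl2, an atypical receptor that binds chemerin and does not signal as the others do, was 2.56-fold higher in the former and 4.88-fold higher in the latter. Of 14 ligands, 1 and 2 could be counted, all higher, and Cxcl10, a ligand of Cxcr3, was 8.04-fold and 8.15-fold higher. Among 26 genes of receptor signalling and desensitisation, 7 were higher and 3 lower in Foxp3+ Ccr7- cells and 2 and 1 in Foxp3- Ccr7- cells, so the higher ones were near the share over all genes in the first set. Rgs16 and Rgs1, which shorten G protein signals, were 6.25-fold and 2.12-fold higher in the first set and 5.91-fold and 2.13-fold higher in the second.

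The genes of lymph node homing and egress were lower on balance. Of the 11 counted, 2 were higher and 7 lower in Foxp3+ Ccr7- cells (median log2 ratio -0.60, against -0.07 over all genes, of which 22.2% were higher and 26.8% lower) and 1 and 4 in Foxp3- Ccr7- cells (-0.38, against -0.02 over all genes, of which 10.2% were higher and 7.22% lower). Klf2 and Klf3, factors of the resting circulating state, had ratios of 0.277 and 0.140 in the former and 0.562 and 0.414 in the latter. S1pr4 had ratios of 0.660 and 0.500. Cd69, which holds T cells in tissue by removing the egress receptor S1pr1, was 1.63-fold higher in both. Among the helper transcription factors Batf was 1.78-fold and 1.67-fold higher.

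Across thinned cells of both libraries, each receptor was compared with 8270 genes by the correlation of log2(count + 1), a description over 6742 tumor-lung and 6374 normal-lung cells that share their library and mix resting with activated cells. Genes were ranked by the lower of the 2 correlations. Ccr2 was most like Lgals1 (r = 0.34 in the tumor lung and 0.35 in the normal lung), S100a6 (0.38 and 0.33) and Klrg1 (0.29 and 0.32). Cxcr3 was most like S100a6 (0.39 and 0.40), Il2rb (0.37 and 0.32) and AW112010 (0.41 and 0.31). By that rank Vim came first for Ccr8, with 0.38 in the tumor lung and 0.13 in the normal lung, although Tnfrsf4 (0.53) and Il2rb (0.40) had higher values in the tumor lung. Ccr4, Ccr6 and Cxcr6 had their nearest genes among Lgals1, Vim, S100a4, S100a10, S100a11 and Rora. No gene reached 0.1 in both libraries for Ccr9, Cxcr4 or Cxcr5.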

How the data were processed

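The deposited tables hold whole-number UMI counts per gene and cell and T cell receptor contigs, made with Cell Ranger on mm10 per the submitters' processing notes (file headers give version 3.1.0). The counting strand is not given in the sources used here. Kept were cells with at least 500 detected genes, under 10% mitochondrial UMIs, and at most 2 alpha and 1 beta chains, the only treatment of doublets: 7135 of 7788 tumor-lung and 7082 of 7745 normal-lung cells. Of 74 kept barcodes in both libraries, none had the same receptor.

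Raw UMIs were summed per set and scaled to CPM (Python 3.11.15, numpy 2.4.6, scipy 1.17.1, pandas 2.3.3). With 1 library per tissue no p-value is given. Intervals are exact 95% Poisson, conditional binomial or Clopper-Pearson and cover counting error only; the floor is 3 counts. A gene was counted from 20 UMIs over both sums and called from 1.5-fold. The calling and pairing steps were tested on simulated data. All 9 receptors are named; of other lists, up to 4 genes past the fold in both Ccr7-negative sets; of pairs, up to 4 at each end; of similar genes, 3 from r = 0.1. Genes, lists and rules were chosen with earlier results of these data known. Alternatives varied filters, thresholds, scaling, depth and clone definition.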

Additional observations from a re-analysis of the deposited data

Results flagged for a closer look

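In 4 cases the ratio of tumor to normal lung lay on opposite sides of 1, with intervals that do not overlap, in sets of cells that differ by Foxp3 or Ccr7 alone. The difference itself was not tested, with 1 library per tissue. Ccr2 had a ratio of 0.740 in Foxp3+ Ccr7- cells and 2.84 in Foxp3+ Ccr7+ cells, and 0.737 in Foxp3- Ccr7+ cells. Ccr4 had a ratio of 0.345 in Foxp3+ Ccr7- cells and 1.06 in Foxp3+ Ccr7+ cells. Cxcr6 had a ratio of 0.973 in Foxp3- Ccr7- cells and 1.72 in Foxp3- Ccr7+ cells. Some of these values crossed 1 under alternatives. Cxcr6 in Foxp3- Ccr7- cells was 1.01 with receptor doublets kept, 1.04 in thinned cells and 1.11 with 1 cell per clone. Ccr4 in Foxp3+ Ccr7+ cells was 0.966 with scaling by the median of ratios and 0.669 with Foxp3 at 2 UMIs. Ccr2 in Foxp3- Ccr7+ cells was 1.49 in thinned cells. The Ccr2 and Ccr4 cases in Foxp3-positive cells rest on 25 to 42 normal-lung UMIs per set, of which 59.5% to 88.0% lay in 5 cells.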

How the results depend on the processing

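None of the 20 ratios between tissues past 1.5-fold crossed 1 under an alternative that was run, but 6 of them came under 1.5-fold in at least 1. Of the 12 within 1.5-fold, 6 passed it in at least 1 alternative and 6 crossed 1, among them Ccr2 in Foxp3- Ccr7+ cells, reported as 0.737, from 0.525 (Ccr7 at 2 UMIs) to 1.49 (thinned cells), Ccr6 in Foxp3+ Ccr7- cells (to 1.13) and Ccr9 in Foxp3- Ccr7+ cells (to 1.37). The 8 counts of receptors past 1.5-fold gave 104 values over the alternatives, of which 102 stayed within 1.5 times the value reported. The exceptions were Foxp3-positive against Foxp3-negative cells of the normal lung in thinned cells (5 instead of 8) and the tissues in Foxp3- Ccr7+ cells by mean per-cell CPM (3 instead of 5). The 32 ratios between tissues gave 412 values over the alternatives, of which 397 lay within the interval of the ratio reported. Some of these values could not move, so the count does not measure stability. A changed minimum of UMIs leaves every ratio as it is, and leaving out cells with Treg genes does not touch the Foxp3+ sets. Foxp3 at 2 UMIs leaves the Foxp3- sets unchanged, and Ccr7 at 2 UMIs leaves the Ccr7- sets unchanged. The Ccr8 ratio ranged over 3.83 to 7.02 in Foxp3+ Ccr7-, 9.09 to 14.5 in Foxp3+ Ccr7+, 3.06 to 6.06 in Foxp3- Ccr7- and 2.84 to 3.79 in Foxp3- Ccr7+ cells, and the Ccr4 ratio in Foxp3+ Ccr7- cells over 0.295 to 0.384. On few normal UMIs, the Cxcr4 ratio in Foxp3+ Ccr7- cells reached 3.22 in thinned cells, and the Cxcr6 ratio in Foxp3+ Ccr7+ cells was 3.15 where Foxp3 needed 2 UMIs. Pairs depended most on the setting. In tumor Foxp3+ Ccr7- cells 2 pairs passed with Foxp3 at 2 UMIs and 3 in thinned cells instead of 1, and the ratio of Ccr6 with Cxcr3 ran from 0.495 to 0.667, the latter, with receptor doublets kept, just missing 1.5-fold. In tumor Foxp3+ Ccr7+ cells 0 passed with receptor doublets kept, with Foxp3 at 2 UMIs and in thinned cells, 3 without cells holding other-lineage markers and 5 without depth bins, instead of 1. In tumor Foxp3- Ccr7+ cells 1 passed in thinned cells and 3 without depth bins, instead of 7, and in normal Foxp3- Ccr7- cells 8 with 1 cell per clone and 10 without depth bins, instead of 5. With clones defined by the beta chain alone, the expanded share of cells with Ccr8 was 49.6%, 33.5% and 3.80% in tumor Foxp3+ Ccr7-, Foxp3+ Ccr7+ and Foxp3- Ccr7+ cells and 5.07% in normal Foxp3- Ccr7+ cells, that with Cxcr3 47.3% in tumor Foxp3+ Ccr7- and 10.5% in normal Foxp3- Ccr7+ cells, and that with Cxcr4 4.03% in the latter. The beta-chain definition also raised the expanded share of whole sets. In tumor Foxp3+ Ccr7-, Foxp3+ Ccr7+ and Foxp3- Ccr7+ cells it went from 37.1%, 18.3% and 0.482% to 42.8%, 22.65% and 1.40%. In normal Foxp3- Ccr7+ cells it went from 2.29% to 5.63%, above the 5.07% of cells with Ccr8. The cause was not tested beyond what each alternative removes. Scaling by the median of ratios shifted log2 ratios by at most -0.29 (Foxp3-positive against Foxp3-negative, tumor lung). Leaving out barcodes found in both libraries, chosen after seeing the data, took Ccr9 in Foxp3- Ccr7+ cells across 1, from 0.953 to 1.01. It moved no other value past these limits. No paired analysis was possible because there was 1 library per tissue. The 31 normal Foxp3+ Ccr7- cells limit every comparison in that set.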

Other observations

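A few further values were chosen after they were seen. Ccr3, a receptor for eotaxins, stood at 15.2 CPM (56 UMIs) in Foxp3+ Ccr7- cells of the tumor lung and 162 CPM (20 UMIs) in those of the normal lung, a ratio of 0.0938. Cx3cr1, the receptor for fractalkine on circulating effector cells, stood at 4.01 CPM (18 UMIs) in tumor Foxp3- Ccr7- cells and 50.8 CPM (125 UMIs) in normal ones, a ratio of 0.0789 (0.0453 to 0.130). Ccr10 had a ratio of 0.266 there.

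Cells with the invariant alpha chain of natural killer T cells (TRAV11 joined to TRAJ18) numbered 14 in the tumor lung and 8 in the normal lung. Cxcr6 was held by 8 and 4 of them, Ccr2 by 6 and 5, and Ccr9 by 3 and 2, and Zbtb16, the factor of innate-like T cells, by 11 and 5. They were 4.29% of all tumor-lung cells with Ccr9. Ccr6 and Cxcr5 were at 0 in both.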
